A study of Homo sapiens with 9 samples.

Results

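Cholesterol synthesis and its control by sterol regulatory element-binding proteins (SREBPs) were examined in the Hodgkin lymphoma cell line L-1236 after targeting of LTA, the gene of the cytokine lymphotoxin alpha. The members were 32 genes chosen by symbol: enzymes of the mevalonate and sterol arms, the SREBP genes with their regulators, sterol transporters and fatty acid enzymes. Of these, 28 had a named transcript cluster (the array's unit of a gene) among 20893 tested, none had several, and FDFT1, MYLIP, NR1H2 and FADS1 were unnamed here. Values are deposited log2 signals from human Clariom S arrays, 3 for each of 3 groups. All cells carried the lentiCRISPR v2 vector (lentiCRIPSPR in the labels), which delivers Cas9. For the control group, labelled v2 and wild type, no guide is named. Clone g2_1 carried a guide to the second LTA exon and clone g3_4 a guide to the fourth, and each is a single clone, so a guide and a clone cannot be told apart. The clones were maintained in medium conditioned by L-1236 cells, and RNA was taken after 72 h in plain RPMI medium with heat-inactivated calf serum. It is not stated whether the control had been in conditioned medium too, or whether a group's arrays came from separate cultures. The p-values therefore rest on the scatter of these 9 arrays alone, part of which may be technical.

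Cells make cholesterol from acetyl-CoA through mevalonate, isoprenoids and squalene. When sterols in the endoplasmic reticulum are low, SCAP escorts SREBPs to the Golgi, where they are cleaved into active transcription factors. When sterols are plentiful, INSIG proteins hold the complex back. Transcription of most enzymes of the route follows the SREBPs, so their mRNAs often move together with the sterol supply from serum and medium.

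LTA, which checks the labels, measured 11.58, 11.07 and 11.08 on the control arrays, 7.97, 7.53 and 7.11 in g2_1 and 6.94, 7.25 and 6.61 in g3_4, and fell in both clones (limma adjusted p = 1.5e-06 and 4.2e-07). Markers listed for Hodgkin and Reed-Sternberg cells had group means above the first quartile of all transcript clusters (4.65) in 9 of 9 cases. Summed over that list they ranged from 88.89 to 91.05 on control arrays, from 87.29 to 87.77 in g2_1 and from 83.7 to 85.37 in g3_4. TNFRSF8 (CD30) rose in both clones, whereas CD274 (-2.03 and -2.36) and GATA3 (-1.43 and -1.49) fell. CD70 rose in g2_1 (1.41) and fell in g3_4 (-0.94), and the clones differed by -2.35 (g3_4 minus g2_1, limma adjusted p = 0.0115). CCL17 fell in g3_4 (-0.98) and did not pass in g2_1 (-0.92). FUT4, IRF4, FSCN1 and ID2 did not pass in either clone. Of 7 B cell markers, MS4A1 (CD20) lay under that quartile in every group. The B cell sums ranged from 41.99 to 42.4, from 42.51 to 42.9 and from 42.59 to 43.83 in the same order of groups, with EBF1 higher (1.27 and 1.22) and PAX5 lower (-0.79 and -0.83) in both clones. The T cell genes CD3D, CD3G and CD8A and the myeloid genes LYZ and FCGR3A lay under it too, whereas the T cell marker CD2 rose in both clones from a control mean of 7.82 to 9.40 and 9.35. Above it in every group lay CD3E, the myeloid genes CD14 and CSF1R and the fibroblast genes COL1A1, COL1A2 and DCN. Means for control, g2_1 and g3_4 were 7.51, 7.56 and 7.30 for CSF1R and 7.88, 8.08 and 8.02 for COL1A2. The 5 T cell markers summed to 24.87 to 26.25, 26.97 to 27.34 and 26.92 to 27.22 in the same order of groups, and the part of these markers in the results was not tested. No detection flags were used, so a value near the floor has no known background. The array numbered 1 had an RNA integrity number of 10 in each group, against 9.5 to 9.6 for the others. The control array numbered 1 stood apart: its differences from the other control arrays had SDs of 0.390 and 0.404 over all transcript clusters, against 0.231 between those 2. The listed markers did not shift one way on that array. CD2 (7.0, against 8.25 and 8.21) and the B cell factor EBF1 (6.40, against 7.45 and 8.0) were lowest there. CCL17 (7.59, against 6.2 and 6.55), PAX5 (7.77, against 7.08 and 7.08), FUT4 and FSCN1 were highest there. The control means of CCL17 and PAX5, from which their falls are measured, include that array.

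The 6 members that passed in both clones are shown by the bases that lie before their RefSeq start site, with SREBF2 as the member whose window held the letters of a sterol regulatory element. Each line gives 200 bases before the start, 5′ to 3′ on the gene's strand, from assembly GRCh38.p14. Capitals mark the motifs searched on both strands: TCACNCCAC (sterol regulatory element), CACGTG (E-box), CCAAT (the box bound by NF-Y) and GGGCGG (the box bound by SP1), and different motifs do not overlap in these stretches.
SC5D promoter, chr11:121292571-121292770, plus strand: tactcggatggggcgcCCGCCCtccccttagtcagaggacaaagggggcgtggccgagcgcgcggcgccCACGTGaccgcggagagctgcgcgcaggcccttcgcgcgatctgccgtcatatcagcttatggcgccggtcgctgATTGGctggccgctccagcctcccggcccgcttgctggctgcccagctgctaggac
CYP51A1 promoter, chr7:92134478-92134677, minus strand: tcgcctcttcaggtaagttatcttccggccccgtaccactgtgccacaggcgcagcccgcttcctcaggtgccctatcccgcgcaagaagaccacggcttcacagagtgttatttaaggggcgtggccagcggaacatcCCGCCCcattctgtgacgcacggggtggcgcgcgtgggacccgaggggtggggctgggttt
MVD promoter, chr16:88663092-88663291, minus strand: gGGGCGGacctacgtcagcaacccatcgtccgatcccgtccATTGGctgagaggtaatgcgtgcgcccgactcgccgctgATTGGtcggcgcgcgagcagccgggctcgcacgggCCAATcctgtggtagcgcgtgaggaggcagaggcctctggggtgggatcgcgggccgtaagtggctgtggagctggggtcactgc
IDI1 promoter, chr10:1056705-1056904, minus strand: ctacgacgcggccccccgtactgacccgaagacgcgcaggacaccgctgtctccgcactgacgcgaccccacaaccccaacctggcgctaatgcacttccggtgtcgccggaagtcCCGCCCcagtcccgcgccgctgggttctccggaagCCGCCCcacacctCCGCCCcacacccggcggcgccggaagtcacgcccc
PMVK promoter, chr1:154936720-154936919, minus strand: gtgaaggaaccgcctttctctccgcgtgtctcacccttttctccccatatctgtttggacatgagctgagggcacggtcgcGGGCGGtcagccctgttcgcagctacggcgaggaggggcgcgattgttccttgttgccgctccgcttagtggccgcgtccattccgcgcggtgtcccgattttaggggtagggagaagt
DHCR7 promoter, chr11:71448394-71448593, minus strand: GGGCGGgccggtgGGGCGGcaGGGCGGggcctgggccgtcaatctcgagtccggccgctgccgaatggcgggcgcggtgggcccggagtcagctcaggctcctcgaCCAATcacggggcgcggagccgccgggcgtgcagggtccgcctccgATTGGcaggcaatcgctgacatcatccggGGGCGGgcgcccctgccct
SREBF2 promoter, chr22:41832905-41833104, plus strand: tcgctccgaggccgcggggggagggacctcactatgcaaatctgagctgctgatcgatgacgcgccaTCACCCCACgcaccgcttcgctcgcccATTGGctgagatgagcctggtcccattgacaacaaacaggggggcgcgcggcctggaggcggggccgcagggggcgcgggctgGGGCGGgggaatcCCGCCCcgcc
A RefSeq window, from 250 bases before to 50 after the first start listed, was found for 24 of the 28 measured members, of which 6 have further windows that were not searched. The CCAAT letters occurred in 16 of 24 members and in 35.7% of all 27305 windows, the GGGCGG letters in 22 of 24 and in 44.6%. CACGTG was found in 5 of 24 members, among them SC5D, and in 7.43% of all windows. TCACNCCAC was found in 1 of 24, SREBF2, and in 1.15% of all windows. The members that fell and the 2 that rose in both clones do not separate by these letters: in these windows MVD (lower) and DHCR7 (higher) each hold CCAAT and GGGCGG, and CYP51A1 (lower) and PMVK (higher) hold GGGCGG and neither of the other 3 motifs. A match is a description of letters and not a site. The lack of a match covers only these exact letters in these windows. Other forms of an element, and elements outside the windows, were not searched.

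Against control cells, the enzymes of cholesterol synthesis did not all move the same way, though most differences in the sterol arm were negative. Of 10 measured sterol arm enzymes, 9 had a negative difference in each clone (medians -0.435 in g2_1 and -0.64 in g3_4). That count was the same with arrays centred on their medians. In the mevalonate arm 4 of 7 were negative in g2_1 and 6 of 7 in g3_4, and 4 of 7 in each clone after centring. In g2_1, 4 of 28 members fell (SC5D, CYP51A1, MVD and IDI1), where 8.06% of all transcript clusters did, and 3 rose (DHCR7, PMVK and FADS2), where 6.19% did. In g3_4, 7 fell (the same 4 with SQLE, NSDHL and HSD17B7), against 8.16% of all, and 3 rose (DHCR7, PMVK and INSIG1), against 6.12%. Both comparisons share the control arrays. Together, 4 members fell in both clones (background 6.97%) and 2 rose in both (4.48%), all of them enzymes of the same route. The median log2 difference of the members was -0.15 in g2_1 and -0.23 in g3_4, against 0.03 over all transcript clusters in each clone, and 19 and 20 of 28 members had a negative difference, where 43.3% and 43.0% of all did. Centring arrays on their medians raised the all-gene median by 0.11, and 16 members (57.1%) were then negative in each clone, against 24.9% and 25.7% of all.

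**Figure D1:**
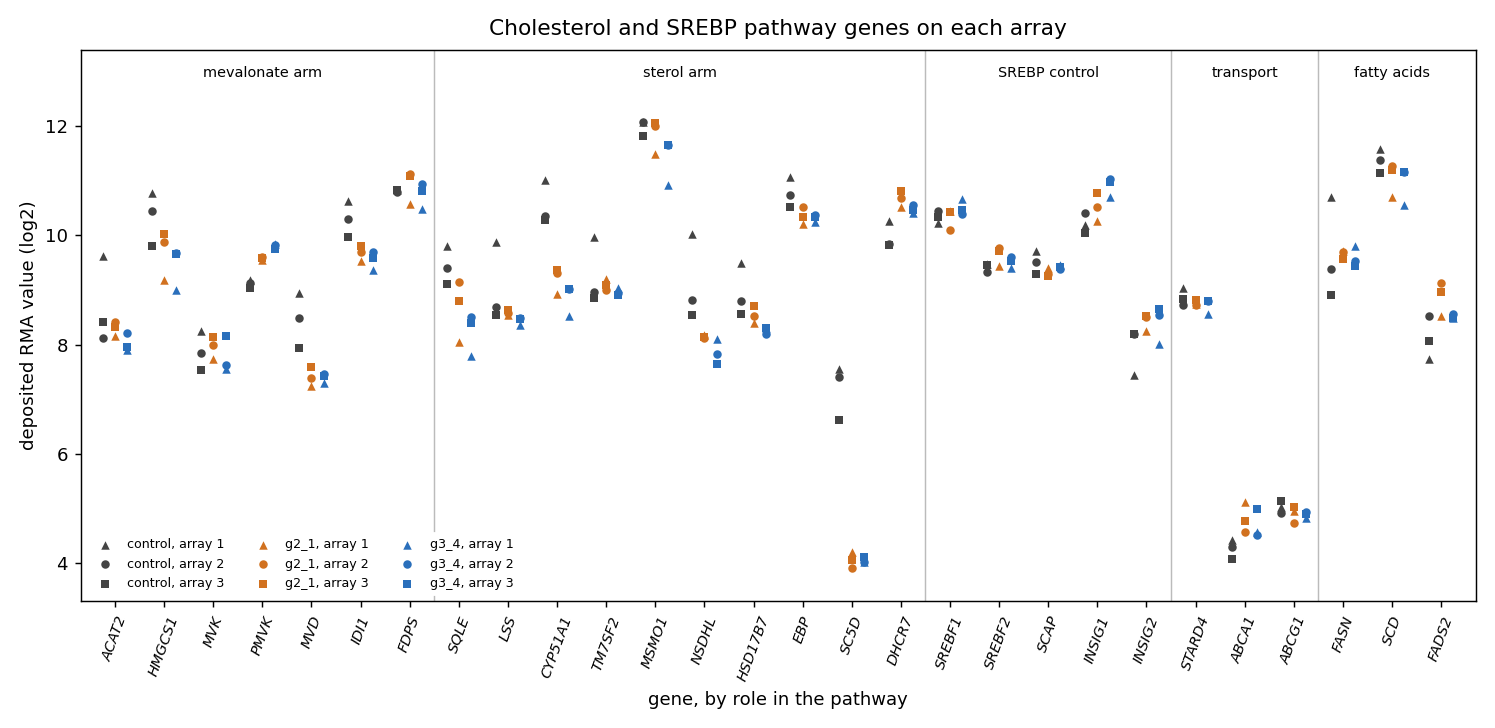
Deposited log2 values of the 28 measured members on each of 9 arrays, by role; colours mark the group and symbols the array number, and levels of different genes are not comparable. SC5D stands near 4 on all clone arrays, and the triangle of control array 1 is the highest control value for 21 of 28 members.

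**Figure D2:**
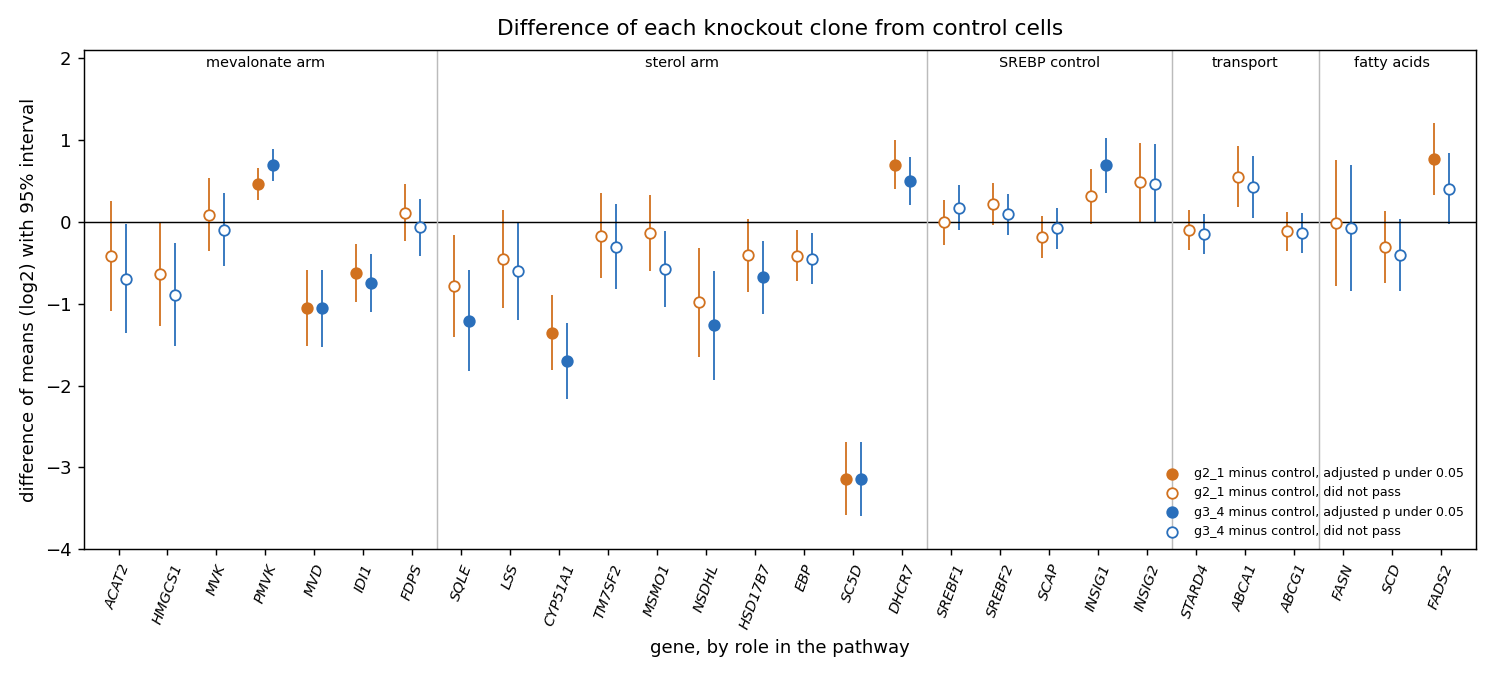
Difference of each clone's mean from the control mean (log2, n = 3 arrays a group) with 95% intervals from limma; filled points passed at an adjusted p under 0.05. SC5D had the deepest fall of the members, -3.14 in each clone, while PMVK and DHCR7 rose in both.

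SC5D, sterol-C5-desaturase, a late enzyme that introduces a double bond into the sterol ring, fell furthest. Its values were 7.55, 7.41 and 6.62 on the control arrays, 4.21, 3.91 and 4.05 in g2_1 and 4.03, 4.02 and 4.11 in g3_4. All clone arrays lie more than 2 log2 units below every control array, and at or near the lowest part of the array's scale. The log2 difference was -3.14 (SE 0.20) in each clone (limma adjusted p = 2.0e-06 in both), and the floor bounds its size. It passed in each of the 19 alternatives in which it could be fitted, with differences from -3.43 to -2.95.

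The gene next to SC5D in RefSeq order on chromosome 11, SORL1, which encodes a sorting receptor, fell too, with differences of -5.82 in g2_1 and -6.06 in g3_4. Beyond these neighbours the stretch did not move one way. Among the 10 named genes on each side of SC5D, the median difference was 0.05 in g2_1 and 0.12 in g3_4. TLCD5, 5 genes before SC5D, fell as well (-1.83 and -1.797), while TRIM29, 8 genes before it, rose by 1.29 and 2.47 and GRAMD1B, 7 genes after it, by 0.91 and 0.86. Of the 20 neighbours of HSD17B7, 6 fell in both clones (6.97% of all transcript clusters) and 1 rose (4.48%). For HMGCS1 4 fell and 0 rose, with a median of -0.235 in each clone, and for FDPS 4 fell and 1 rose. No other measured member had as many falling neighbours. Of the 20 neighbours of MVD, 1 fell in both clones, the adjacent CYBA (-0.63 and -0.45), and 0 rose. Of the 16 neighbours of IDI1, 1 fell in both clones, PFKP (-2.0 and -2.10), and 0 rose. The part of such stretches in the members' values was not tested.

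**Figure D3:**
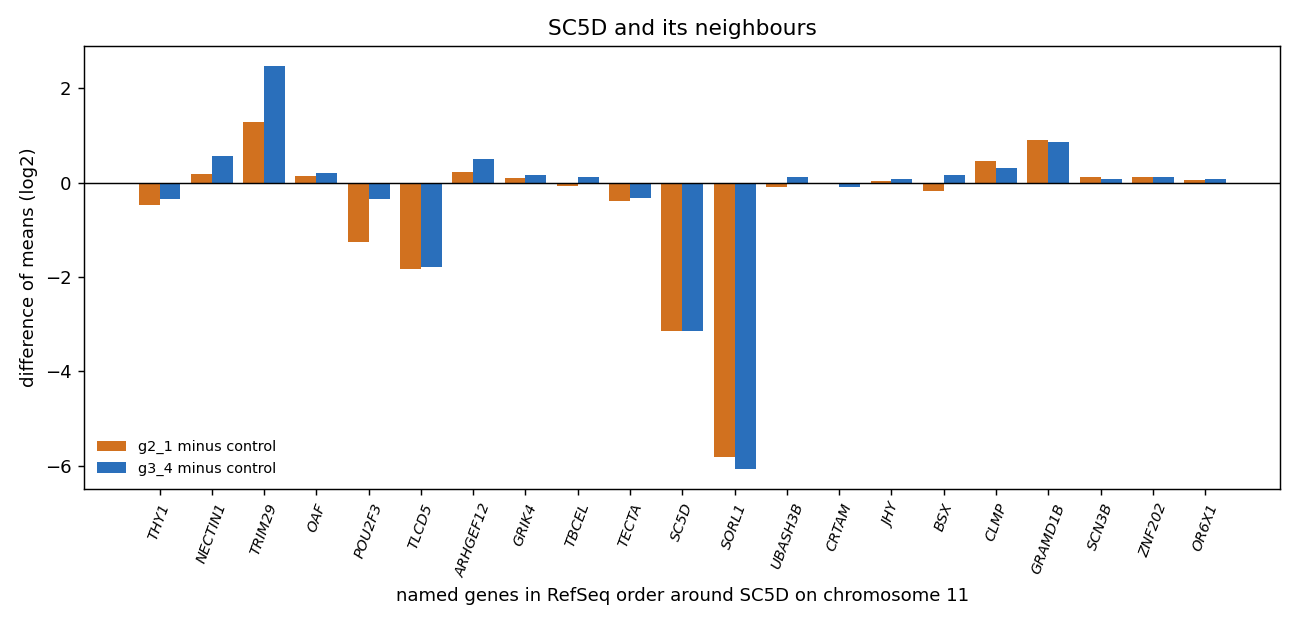
Log2 difference of each clone's mean from the control mean for SC5D and the 10 named genes on each side of it, in RefSeq gene order and not to distance. SC5D and SORL1 stand side by side at the deepest differences, and TLCD5, at -1.83 in g2_1, has the next deepest.

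CYP51A1, lanosterol 14-alpha-demethylase, which starts the conversion of lanosterol, measured 11.01, 10.36 and 10.28 in control cells. It measured 8.92, 9.31 and 9.36 in g2_1 and 8.53, 9.02 and 9.01 in g3_4. The groups do not overlap, and the highest control array and the lowest array of each clone all carry the number 1. It fell by 1.35 (SE 0.21, adjusted p = 0.00131) and by 1.70 (adjusted p = 2.9e-04) in limma, that is 2.56-fold and 3.24-fold lower, and passed in 20 of 20 alternatives in each clone.

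MVD, mevalonate diphosphate decarboxylase, which makes isopentenyl diphosphate, had control values of 8.95, 8.48 and 7.93. Its clone values were 7.24, 7.38 and 7.59 in g2_1 and 7.29, 7.46 and 7.43 in g3_4, so the lowest control array is close to the highest clone array. It fell by 1.05 (SE 0.21, adjusted p = 0.00658) and by 1.06 (adjusted p = 0.00619) in limma and passed in 20 of 20 alternatives in each clone. IDI1, the isomerase that acts on the product of MVD, measured 10.63, 10.30 and 9.97 in control cells, 9.53, 9.70 and 9.80 in g2_1 and 9.37, 9.69 and 9.59 in g3_4. It fell by 0.75 in g3_4 (SE 0.16, adjusted p = 0.00978), a call kept in 20 of 20 alternatives, and by 0.62 in g2_1 (adjusted p = 0.0251). The call in g2_1 was lost without g2_1 array 1 (adjusted p = 0.0975), g2_1 array 2 (0.0721), control array 1 (difference -0.46, 0.0512), control array 2 (0.0654) or the arrays numbered 1 (difference -0.385, 0.0976), or with only the 2 groups compared in the fit (0.0525).

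PMVK, phosphomevalonate kinase, which acts just before MVD, moved the other way. It measured 9.19, 9.12 and 9.04 in control cells, 9.55, 9.60 and 9.58 in g2_1 and 9.84, 9.83 and 9.75 in g3_4. The 3 groups form 3 separate ranges. It rose by 0.46 (SE 0.09, adjusted p = 0.00511) and by 0.69 (adjusted p = 3.8e-04) in limma, kept in 20 of 20 alternatives, and the clones themselves differed by 0.23 (95% interval 0.03 to 0.43, adjusted p = 0.985), which did not pass. DHCR7, the reductase of the last step of the Kandutsch-Russell route, measured 10.26, 9.84 and 9.82 in control cells, 10.51, 10.69 and 10.81 in g2_1 and 10.40, 10.55 and 10.46 in g3_4. All clone arrays are above all control arrays, by a narrow gap to control array 1. It rose by 0.70 in g2_1 (SE 0.13, adjusted p = 0.00521; 20 of 20 alternatives) and by 0.50 in g3_4 (adjusted p = 0.0305). The call in g3_4 was lost without g2_1 array 2 (adjusted p = 0.0508), g3_4 array 1 (0.0612), 2 (0.11) or 3 (0.0827), control array 2 (0.104) or 3 (0.0945), or with only the 2 groups compared (0.0586), and kept in 13 of 20 alternatives.

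The other mevalonate enzymes did not pass. HMGCS1, the synthase that commits acetyl units to the route, measured 10.77, 10.44 and 9.80 in control cells, 9.18, 9.88 and 10.03 in g2_1 and 9.0, 9.67 and 9.66 in g3_4. Only g2_1 overlaps the control arrays, since all g3_4 arrays lie below them, and each clone's array 1 is its lowest. Its differences were -0.64 (95% interval -1.27 to -0.01) and -0.89 (-1.52 to -0.26), with adjusted p = 0.187 and 0.0628 in limma, and the latter passed without g2_1 array 1 (0.0433) or control array 3 (-1.16, 0.019). ACAT2, the acetyl-CoA acetyltransferase at the head of the route, measured 9.62, 8.12 and 8.42 in control cells against 7.91 to 8.41 on the clone arrays. Apart from control array 1 its groups overlap, with differences of -0.42 and -0.70 (adjusted p = 0.454 and 0.174), and -0.997 (0.0484) in g3_4 without control array 2. Without control array 1 the difference was 0.03 in g2_1 and -0.25 in g3_4. MVK (mevalonate kinase) and FDPS (farnesyl diphosphate synthase) had differences between -0.10 and 0.11 in both clones, with intervals between -0.54 and 0.53.

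In the sterol arm, SQLE, squalene epoxidase, a rate-limiting enzyme of the arm, measured 9.80, 9.41 and 9.11 in control cells. It measured 8.04, 9.14 and 8.79 in g2_1 and 7.80, 8.50 and 8.40 in g3_4. Each clone's array 1 is its lowest by a wide margin, g2_1 reaches the control range on array 2, and g3_4 does not reach it. SQLE fell by 1.21 in g3_4 (SE 0.28, limma adjusted p = 0.0148), lost without g3_4 array 1 (-0.99, 0.0638), and its difference in g2_1 was -0.78 (adjusted p = 0.0976). The clones differed by -0.42 (95% interval -1.04 to 0.20), which did not pass.

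NSDHL, a dehydrogenase that removes a methyl group at carbon C4 of the sterol, measured 10.02, 8.82 and 8.54 in control cells, 8.17, 8.12 and 8.13 in g2_1 and 8.11, 7.82 and 7.65 in g3_4. The groups do not overlap, and control array 1 stands more than 1 log2 unit above the other control arrays. NSDHL fell by 1.27 in g3_4 (SE 0.30, limma adjusted p = 0.0164) and had a difference of -0.99 in g2_1 (adjusted p = 0.053). Without control array 1 both differences were smaller and passed, at -0.54 (adjusted p = 0.0252) and -0.82 (0.00249). Without control array 3 the value in g2_1 passed (-1.28, 0.0143), and the call in g3_4 was lost without g3_4 array 2 (0.0587) or array 3 (0.0674) or with only the 2 groups compared (0.0525). In g2_1 NSDHL also passed with array weights (-0.72, 0.026), with either filter on low values (0.0485 and 0.0449) and without the arrays numbered 1 (0.0207). HSD17B7, the ketoreductase of the same demethylation, measured 9.50, 8.79 and 8.56 in control cells, 8.39, 8.52 and 8.71 in g2_1 and 8.31, 8.19 and 8.31 in g3_4. It fell by 0.68 in g3_4 (adjusted p = 0.0465), a call kept in 9 of 20 alternatives, and its difference in g2_1 was -0.41 (0.238). RefSeq lists pseudogenes named after HSD17B7 (2), CYP51A1 (3), IDI1 (3), FDPS (10) and SCD (1), so their probes may read copies.

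The call of HSD17B7 in g3_4 was lost without array 1 (adjusted p = 0.0604), 2 (0.0734) or 3 (0.0617) of g2_1, array 1 (0.103), 2 (0.138) or 3 (0.106) of g3_4, control array 2 (0.0633) or the arrays numbered 1 (0.0623), and with only the 2 groups compared (0.0964), centred arrays (0.0713) or quantile normalization (0.0522). LSS, lanosterol synthase, and TM7SF2, a sterol C14 reductase, had control array 1 values of 9.87 and 9.97, above all other arrays. Their other control arrays (8.55 to 8.68 and 8.86 to 8.97) lay close to or among the clone arrays (8.35 to 8.63 and 8.90 to 9.20). LSS had differences of -0.45 and -0.60 (limma adjusted p = 0.348 and 0.197), and TM7SF2 of -0.17 and -0.31 (0.734 and 0.482). MSMO1, the methylsterol oxidase, had a difference of -0.14 in g2_1 (95% interval -0.60 to 0.33) and -0.58 in g3_4 (-1.04 to -0.11; adjusted p = 0.102). EBP, the isomerase of the sterol ring, had differences of -0.42 and -0.45 (adjusted p = 0.0775 and 0.0571) and passed in both clones without control array 3 (-0.54, 0.0261, and -0.575, 0.0201), and in g3_4 also with a trended, robust variance (0.0391) or with rows under the median level left out (0.0443).

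The genes that steer the pathway showed smaller differences than several of its enzymes. SREBF1, which encodes the SREBP isoforms best known for fatty acid synthesis, measured 10.23 to 10.45 in control cells, 10.10 to 10.45 in g2_1 and 10.39 to 10.67 in g3_4. SREBF2, which encodes the isoform best known for cholesterol synthesis, measured 9.32 to 9.48, 9.43 to 9.77 and 9.40 to 9.60. SCAP, the escort protein, measured 9.29 to 9.72, 9.25 to 9.40 and 9.39 to 9.46. All 3 genes overlap between groups, did not pass in either clone, and had 95% intervals between -0.445 and 0.47.

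INSIG1, a retention protein and itself a target of SREBPs, measured 10.18, 10.41 and 10.04 in control cells, 10.27, 10.51 and 10.78 in g2_1 and 10.70, 11.03 and 10.97 in g3_4. All g3_4 arrays are above all control arrays, and g2_1 overlaps them. INSIG1 rose by 0.69 in g3_4 (SE 0.15, limma adjusted p = 0.011), lost without g3_4 array 2 (0.625, adjusted p = 0.0523). Its difference was 0.31 in g2_1 (adjusted p = 0.236), and the clones differed by 0.38 (95% interval 0.05 to 0.72, adjusted p = 0.997). It thus had the opposite sign to CYP51A1 and SQLE in the same clone. INSIG2, a second retention protein, measured 7.45, 8.19 and 8.20 in control cells, 8.25, 8.50 and 8.53 in g2_1 and 8.02, 8.55 and 8.66 in g3_4, with array 1 the lowest of each group. Its differences of 0.48 and 0.46 did not pass (adjusted p = 0.197 and 0.216), and the latter was 0.41 and passed without the arrays numbered 1 (0.0332).

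Of the transport genes, STARD4, a cytosolic sterol carrier, measured 8.72 to 9.04 in control cells and 8.56 to 8.82 on the clone arrays, with differences of -0.10 and -0.15 that did not pass. ABCA1 and ABCG1, sterol exporters induced by liver X receptors, lay near the floor. ABCA1 measured 4.08 to 4.43 in control cells and 4.51 to 5.12 on the clone arrays, without overlap, with differences of 0.55 and 0.42 (limma adjusted p = 0.0554 and 0.144). In g2_1 it passed without g2_1 array 2 (0.675, 0.0448), g3_4 array 3 (0.0416) or control array 1 (0.63, 0.04), and with centred arrays (0.66, 0.0185), quantile normalization (0.0479) or a trended, robust variance (0.044). In g3_4 it passed with centred arrays (0.53, 0.0491). ABCG1 measured 4.73 to 5.14 over all arrays. Among all measured members, all clone arrays were above all control arrays for 3 (PMVK, DHCR7 and ABCA1), where 9.70% of all transcript clusters were, and below them for 5 (MVD, IDI1, CYP51A1, NSDHL and SC5D), where 10.6% were.

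FADS2, the delta-6 desaturase of polyunsaturated fatty acids, measured 7.73, 8.53 and 8.06 in control cells, 8.53, 9.13 and 8.96 in g2_1 and 8.49, 8.56 and 8.48 in g3_4. It rose by 0.77 in g2_1 (SE 0.20, limma adjusted p = 0.0247), and its difference in g3_4 was 0.40 (adjusted p = 0.237). The call was lost without g2_1 array 2 (0.107) or array 3 (0.0867), control array 1 (0.58, 0.0545) or 3 (0.0629), or with only the 2 groups compared (0.0668). FASN, fatty acid synthase, measured 10.71, 9.38 and 8.91 in control cells, the widest control range of any member, against 9.44 to 9.81 on the clone arrays. Its differences were -0.01 and -0.07, and without control array 1 it stood at 0.51 in g2_1 (adjusted p = 0.0497) and 0.45 in g3_4 (0.081). SCD, the stearoyl-CoA desaturase, had differences of -0.31 and -0.41 that did not pass.

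Between the clones, 0 of 28 members passed, where 0.0526% of all transcript clusters did in limma (0.0335% higher and 0.0191% lower in g3_4). At an unadjusted p under 0.05, 2 did, PMVK and INSIG1, where 4.41% of all did. The largest differences, g3_4 minus g2_1, were -0.44 for MSMO1 (95% interval -0.90 to 0.02), -0.42 for SQLE and 0.38 for INSIG1, and 24 of 28 were negative, against 49.9% of all. These intervals and unadjusted p-values come from the fit without pairing, although the array number pairs the clones. Its spread also includes the control arrays, which scattered more for these genes, so the intervals may be too wide. With the number as a block, 0 of 28 members passed as well. SQLE, NSDHL, HSD17B7 and INSIG1, which passed in g3_4 alone, and FADS2, which passed in g2_1 alone, are therefore not shown to differ between the clones.

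Control array 1 differed from the other control arrays in many of the biosynthetic enzymes. Control array 1 was the highest of the control arrays for 21 of 28 members (40.8% of all transcript clusters) and the lowest for 3, SREBF1, INSIG2 and FADS2 (34.9%). It stood at least 0.5 above the mean of the other control arrays for 12 members (7.21%): FASN by 1.57, ACAT2 by 1.35, NSDHL by 1.34, LSS by 1.26, TM7SF2 by 1.06, HSD17B7 by 0.83, MVD by 0.75, CYP51A1 by 0.69, HMGCS1 by 0.65, MVK by 0.55, SQLE by 0.54 and SC5D by 0.54. It stood at least 0.5 below it for 2 (6.94%), INSIG2 by 0.75 and FADS2 by 0.57. Control arrays 2 and 3 were closer, with a median difference of 0.22 over the members (0.01 over all transcript clusters) and 22 of 28 higher on array 2 (50.1% of all). FDPS (10.83, 10.80 and 10.83), PMVK and MSMO1 were among the enzymes whose control arrays differed little. The median SD of the members was 0.34 for control arrays, 0.16 for clone g2_1 and 0.15 for clone g3_4, against 0.155, 0.12 and 0.12 over all transcript clusters. The control SD exceeded that of both clones for 19 members (48.4% of all). In a limma fit with terms for array 1 in control cells and in clones, added after these values were seen, the lone control array is assumed to vary like the rest. There 8 members were higher on control array 1 (6.1% of all): ACAT2, MVD, LSS, CYP51A1, TM7SF2, NSDHL, HSD17B7 and FASN. INSIG2 was lower (adjusted p = 0.00932; 6.03% of all).

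**Figure D4:**
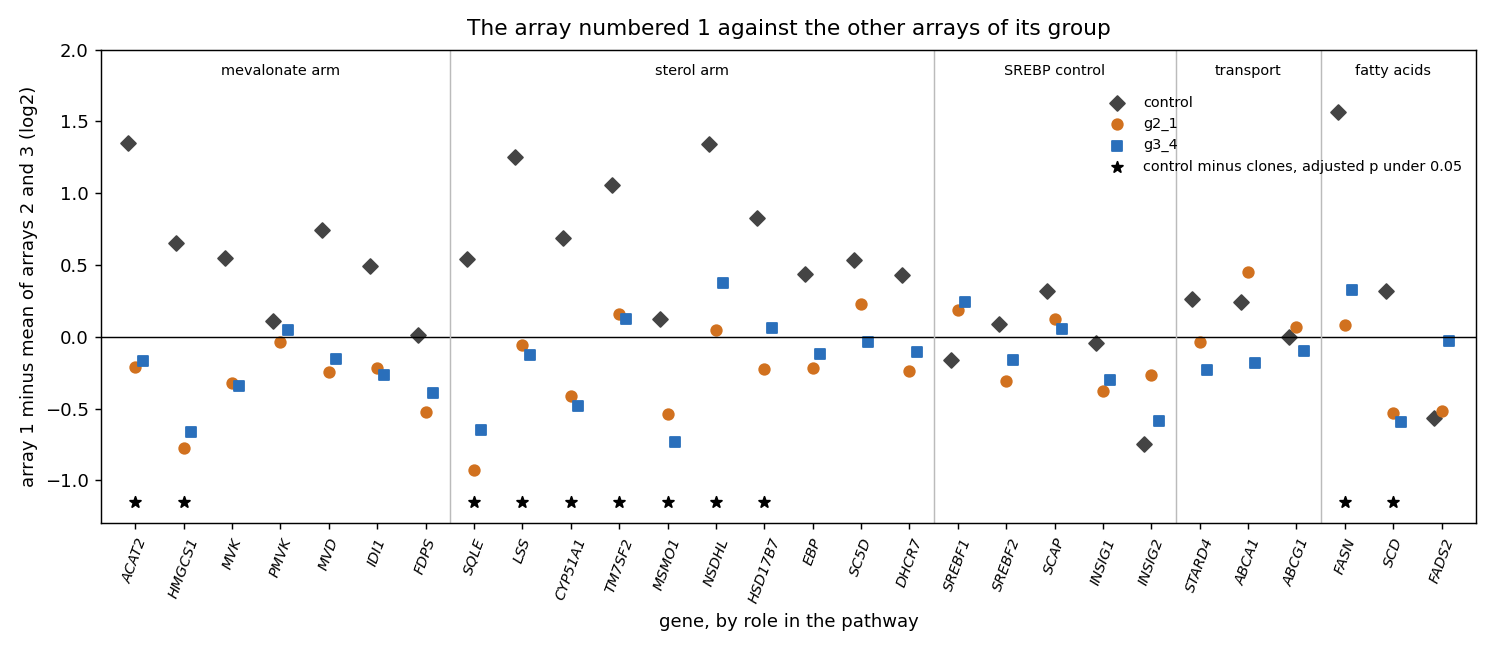
Array 1 minus the mean of arrays 2 and 3 of the same group (log2), for control cells and both clones; stars mark members whose difference in control cells differs from that in the clones at an adjusted p under 0.05. For SQLE the control value is 0.54 and the clone values are -0.925 and -0.65, on opposite sides of 0.

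In the clones the array numbered 1 lay low rather than high for many members. It was the lowest of its group for 19 members in g2_1 (32.6% of all) and 18 in g3_4 (35.3%). It was the lowest array of both clones for 16 of 28 members, where 17.5% of all transcript clusters were, among them HMGCS1, IDI1, SQLE, LSS, CYP51A1, MSMO1 and SCD. For 15 members it was above the mean of the other arrays in control cells and below that mean in both clones (10.9% of all), by little in some, such as FDPS in control cells. SQLE was lower on array 1 by 0.925 in g2_1 and by 0.65 in g3_4 and higher by 0.54 in control cells. HMGCS1 was lower by 0.775 and 0.665 and higher by 0.65, and SCD lower by 0.53 and 0.595 and higher by 0.32. FASN, NSDHL, TM7SF2 and SCAP did not share that reversal: their array 1 values were above the mean of the others in all 3 groups, and by most in control cells. INSIG1, INSIG2 and FADS2 were below that mean on array 1 in all 3 groups.

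The difference between control cells and clones in this array 1 shift was tested in the same limma fit. Of 28 members, 11 passed and were higher in control cells, where 1.84% of all transcript clusters were, and 0 were lower (1.52%), with 3.36% of all changed either way. They were ACAT2 (1.54, SE 0.20, adjusted p = 0.0047), HMGCS1, SQLE, LSS (1.35, adjusted p = 0.0032), CYP51A1 (1.14, adjusted p = 0.0046), TM7SF2, MSMO1, NSDHL, HSD17B7, FASN and SCD. The count was 3 without g2_1 array 1, 5 without g3_4 array 1, 7 without g2_1 array 2, g3_4 array 2, g3_4 array 3 or control array 3, and 17 with a trended, robust variance. Taken as a common shift of array 1 in all groups, 1 member passed (4.08% of all, 1.48% higher and 2.59% lower), INSIG2 at -0.53 (SE 0.09, adjusted p = 0.017), lost without g3_4 array 1 (0.081), g3_4 array 3 (0.051) or control array 1 (0.071). Without control array 1, that is in the clones alone, 5 members were lower on array 1 (1.18% of all lower and 1.59% either way): SQLE (-0.79, adjusted p = 0.0278), MSMO1 (-0.64, 0.0235), SCD (-0.56, 0.0287), FDPS (-0.46, 0.0418) and CYP51A1 (-0.45, 0.0394). RNA integrity was the same, 10, on all 3 arrays numbered 1, and the part of culture, RNA or processing day in this was not tested.

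The calls against control cells were counted again without these arrays. Without control array 1, 8 members passed in g2_1 (14.9% of all), 10 in g3_4 (15.1%) and 6 the same way in both clones (12.0%). Without all 3 arrays numbered 1, 7 passed in g2_1 (13.9%), 10 in g3_4 (13.2%) and 6 the same way in both (10.5%). In both cases NSDHL took the place of IDI1 among the 6, which otherwise stayed CYP51A1, MVD, SC5D, PMVK and DHCR7. Without the arrays numbered 1, CYP51A1 stood at -0.985 and -1.305 and MVD at -0.72 and -0.76.

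Of 52 other genes of sterol and fatty acid metabolism, chosen by role, 43 were measured. In both clones 6 rose and 4 fell, where 4.48% and 6.97% of all transcript clusters did. The list was drawn up with earlier results of these data known, so these counts are no independent evidence. ACSS2, which makes acetyl-CoA from acetate, rose by 1.61 and 1.41 and NCEH1, a cholesteryl ester hydrolase, by 1.63 and 1.16. GRAMD1B, a sterol carrier between plasma membrane and endoplasmic reticulum, rose by 0.91 and 0.86, and SMPDL3A, a phosphodiesterase known as a target of liver X receptors, by 0.77 and 1.04. FADS3, a member of the desaturase family beside FADS2, fell by 1.29 and by 1.38. ERLIN1 and ERLIN2, partner proteins of the endoplasmic reticulum that restrain SREBP activation, both fell, ERLIN1 by 0.90 and 0.63 and ERLIN2 by 0.82 and 0.79. LRP8, a lipoprotein receptor, fell by 0.67 and 0.69. None of these 8 had a limma adjusted p above 0.0167 in either clone. By role, 2 of 6 genes of SREBP processing and its control fell and 1 rose in both clones, 0 of 4 isoprenoid and sterol genes passed, 2 of 12 fatty acid genes rose and 1 fell, 2 of 13 sterol handling genes rose and 1 fell, and 1 of 8 genes of liver X receptors and oxysterols rose.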

How the data were processed

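RNA of 9 samples (250 ng each) was measured on human Clariom S arrays. The deposited values are log2 signals per transcript cluster, which the authors made by RMA, the submitters' processing notes naming Transcriptome Analysis Console 4.0; the genome build is not given in the sources used here. RMA equalises the distributions of arrays and compresses differences near the floor. Rows with mapped IDs (20893) were tested and 555 unmapped rows left out. Symbols came from the platform annotation, updated through RefSeq (GRCh38.p14) gene IDs. For arrays, their number limits the precision.

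Groups were compared in R 4.3.3 by limma 3.58.1 (lmFit with a mean for each group, then eBayes, all 9 arrays, two-sided, Benjamini-Hochberg adjustment over all tested rows); a member rose, fell or passed at an adjusted p under 0.05. The procedure was tested on simulated data. Members and lists were chosen with earlier results of these data known. Text names all members, LTA, listed markers, neighbours of SC5D, MVD and IDI1, and up to 4 other pathway genes a direction. Those are the genes with the largest mean difference among genes passing in both clones. Same-numbered arrays of both clones deviated alike (correlations 0.435, 0.191 and 0.310), so the number pairs the clones. It does not pair them with the control throughout. Control correlations with g2_1 and g3_4 were 0.285 and 0.298 for number 1, 0.0426 and 0.0565 for number 2, and 0.1825 and 0.257 for number 3. The main fit used no pairing term, and a fit with the number as a block is among the alternatives. Alternatives were other scalings, variance models, filters, rows and sets of arrays.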

Additional observations from a re-analysis of the deposited data

Results flagged for a closer look

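The signed difference of array 1 from the other arrays of its group was compared between control cells and clones. In this test 11 members passed at a limma adjusted p under 0.05, all with the higher value in control cells. It does not compare the sizes of the differences: for SQLE they were 0.54 in control cells and -0.79 in the clones. The log2 difference, control minus clones, was 1.54 for ACAT2, 1.37 for HMGCS1, 1.33 for SQLE, 1.35 for LSS, 1.14 for CYP51A1, 0.92 for TM7SF2, 0.76 for MSMO1, 1.13 for NSDHL, 0.91 for HSD17B7, 1.36 for FASN and 0.88 for SCD. The comparison was added after control array 1 was seen to stand apart and rests on that 1 control array, so it describes these arrays and is no independent evidence; without g2_1 array 1, 3 members passed.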

How the results depend on the processing

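The precision is limited by 3 arrays a group, and signal over background is unknown. Over 20 alternatives (17 for the common shift of array 1, 16 for its difference between control cells and clones), the counts of members passing in g2_1 (main 7), in the same way in both clones (6) and between the clones (0) stayed within 1.5 times. LTA passed in both clones in 20 of 20. The count in g3_4 (main 10) ranged from 6, without g3_4 array 2, to 11 when 1 array was left out. The count for a common shift of array 1 (main 1) was 3 with array weights and 0 to 5 with 1 array left out. The count for the difference in that shift (main 11) was 17 with a trended, robust variance and 3 to 13 with 1 array left out. With 1 array left out, FASN in g2_1 ranged from -0.39 to 0.51, its sign turning without control array 1 (main -0.01, then a limma adjusted p of 0.0497); control array 1 holds its highest value. For LTA the difference in that shift ranged from -0.145 to 0.495 with 1 array left out and did not pass. SC5D and ABCG1 could not be tested with transcript clusters under the median level left out, nor ABCA1 under either filter. The causes of other changes were not tested. With the array number as a replicate block, 10 members passed in g2_1, 12 in g3_4, 8 in both clones and 0 between the clones, where the number pairs the samples; NSDHL, INSIG2 and ABCA1 were gained in g2_1 (adjusted p = 0.0171, 0.0182 and 0.0454) and MSMO1 and INSIG2 in g3_4 (0.0463 and 0.0214).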
